A study of Arabidopsis thaliana with 6 samples.

Results

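The genes described here were higher in cotyledons of the Arabidopsis thaliana mutant sicy-192 than in wild type, and higher to a like degree when GUN1 was mutated as well. They were chosen by their own values on these arrays. For each probe set, the level was the mean of log2(signal + 16) over the 2 arrays of a genotype. A probe set was taken when its level was at least 1 above wild type in both mutant genotypes, when these were less than 0.5 apart, and when the mean level over the 3 genotypes was at least 6. Of 22746 probe sets other than controls, 179 met these limits, and 1 was left out because it is listed under symbols used for plastid ribosomal protein genes. The 178 that remained are called members below, and they are 0.783% of the probe sets. The gene table used here lists a single gene for 102 members, several genes for 7 and none for 69.

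Total RNA of cotyledons was hybridised to 1-colour Affymetrix arrays, 1 sample per array, with 2 arrays labelled as biological replicates for each of 3 genotypes in the Col-0 ecotype. The first genotype was wild type, another sicy-192, and the last carried gun1-101 as well (sicy-192 gun1-101, called the double mutant below). Seedlings of every genotype were 4 days old and stood on MS medium holding 100 mM sucrose. Days had 16 h of light, at 100 µmol photons per m2 and s and 25 °C, followed by 8 h of darkness at 22 °C. Every group therefore had sucrose, the double mutant carries the sicy-192 allele, and a gun1-101 single mutant is not analysed here. Nothing says that the replicate plants were raised separately, so any p-value measures the spread between these samples, which may be technical, and the number of arrays limits the precision. No probe set is named for GUN1 (AT2G31400) or for the invertase gene (AT5G22510) in the table used here, so the genotypes were not checked against their own genes.

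As background, sicy-192 is a gain-of-function allele of a plastid invertase, which splits sucrose into glucose and fructose, and its cotyledons turn yellow on sugar. GUN1, which has pentatricopeptide repeats and sits in plastids, is a protein through which plastid state alters the expression of nuclear photosynthesis genes. Plants also signal from mitochondria to the nucleus, a route known for raising transcripts of mitochondrial chaperones and of oxidative stress genes, and sugar is known to raise transcripts of anthocyanin synthesis in seedlings.

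Across arrays, the control probe sets did not all behave alike. The spike-in transcript bioB gave 313 to 391 on the replicate 1 arrays and 51.6 to 68.8 on the replicate 2 arrays. The ratio of the 3′ to the 5′ actin probe set, a sign of RNA length, was 6.14 to 7.18 in replicate 1 and 4.00 to 4.86 in replicate 2. The 25S ribosomal RNA control was 7778 and 8362 in the double mutant, but 452 and 1764 in wild type and 1378 and 1173 in sicy-192. Of 9 genes listed as markers of green cotyledons, 5 are named by the gene table used here. Their summed signal was 80808 to 104900 in wild type, 24402 to 32431 for sicy-192 and 48049 to 57167 for the double mutant. None of these 5 was near background on any array. Of 8 root genes 3 are named. PYK10, a beta-glucosidase of the ER bodies that roots and young cotyledons both hold, gave 16881 to 21945 with overlapping groups, while the root hair expansins EXPA7 and EXPA18 had mean signals of at most 46.5. None of the 15 listed seed storage and maturation genes is named. The part of these differences in the values below was not tested, and in whole cotyledons fewer cells of a type and less RNA per cell cannot be told apart.

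The members differed from wild type by a median of 1.35 on the log2 scale for sicy-192 and of 1.39 for the double mutant. Their range was 1.003 to 4.27 for sicy-192 and 1.004 to 4.004 for the double mutant. Over all 14785 probe sets bright enough to be tested, the medians were 0.16 and 0.07. The smaller of a member's 2 changes was at least 2 for 23 members, at least 3 for 6, and under 1.2 for 80, so the group is crowded at its lower limit. All 4 mutant arrays lay above both wild-type arrays for 173 of the 178, as they did for 19.1% of all probe sets. Of the 177 members that could be tested, limma called 162 higher in sicy-192, where 13.8% of all tested probe sets were called higher, and 167 higher in the double mutant, against 17.3%. These counts follow from how the members were chosen, and both contrasts share the wild-type arrays. The member below the brightness filter was AT1G72570, named after its values were seen.

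**Figure D1:**
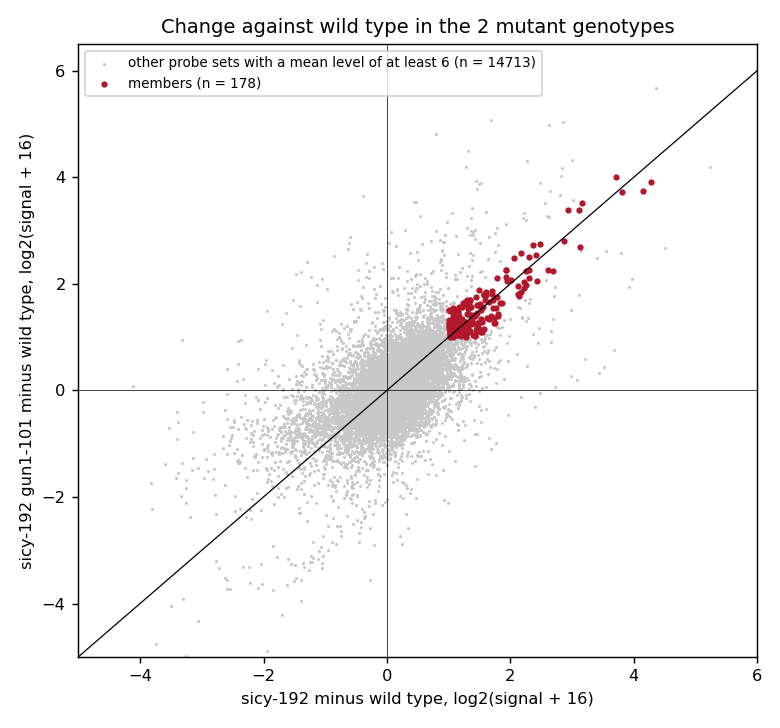
Change of each probe set against wild type, in sicy-192 (horizontal axis) and in the double mutant (vertical axis), both as differences of log2(signal + 16). Red points are the 178 members and grey points the 14713 other probe sets with a mean level of at least 6. The members lie within 0.5 of the diagonal line and reach 4.27 on the horizontal axis.

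Of the 585 probe sets that met the limits on sicy-192 against wild type and on mean level, the 178 members made up 30.4%. In the double mutant 109 of the others were at least 1 lower than in sicy-192, 139 were 0.5 to 1 lower, and 71 were at least 0.5 higher. A further 88 were within 0.5 of sicy-192 but less than 1 above wild type. Of the 835 probe sets that met the limits for the double mutant, the members were 21.3%. Between the mutants, 97 members were higher and 81 lower in the double mutant, by -0.49 to 0.49 with a median of 0.03, and 108 were less than 0.25 apart. Only 110 kept the same sign of that gap in the replicate 1 and the replicate 2 arrays. limma called 2 members between the mutants, where 20.7% of all tested probe sets were called in either direction. Both were higher in the double mutant, and the gene table lists no gene for either. Since members had to be less than 0.5 apart, the low count follows from how they were chosen.

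Wild-type signals of the members had a median of 131 and a range of 8.17 to 3481. The rule requires levels below those of the mutants, and the signals of all probe sets are not given for comparison. In wild type 72 members had a mean signal under 100, against 16 for sicy-192 and 16 for the double mutant, where the medians were 451 and 457. In 4 members the wild-type mean was under the 16 that was added, so the size of their change depends on that number. The median SD of a member between its 2 arrays was 0.27 in wild type, 0.18 for sicy-192 and 0.17 for the double mutant on the log2 scale. Within replicate 1 the median change was 1.489 for sicy-192 and 1.497 for the double mutant, and within replicate 2 it was 1.29 and 1.32. All 4 of these within-replicate differences were above 0 in 177 members and at least 1 in 104. The rule already required their mean over the replicates to be at least 1, so these counts are no independent check.

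**Figure D2:**
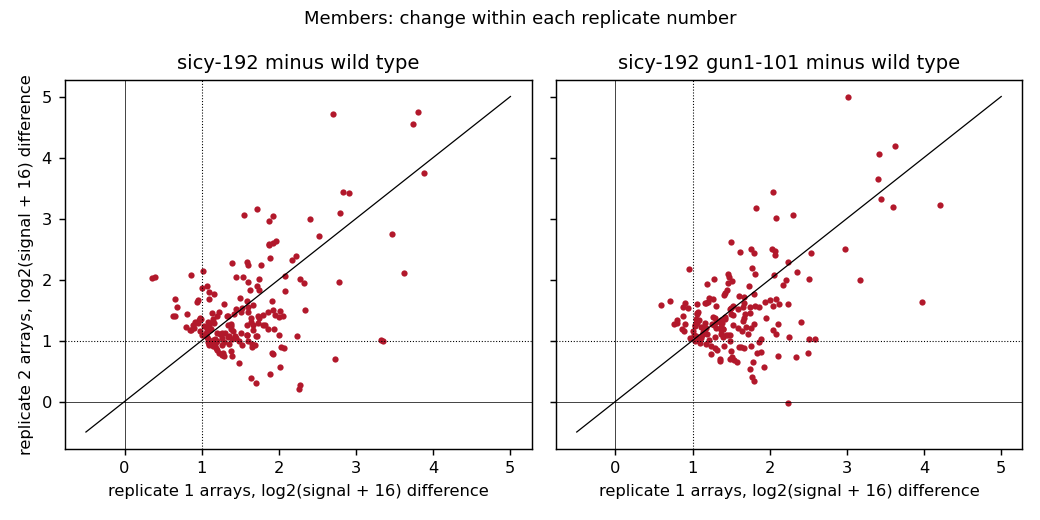
Change of each of the 178 members computed from the replicate 1 arrays (horizontal axis) and from the replicate 2 arrays (vertical axis), for sicy-192 (left) and the double mutant (right), in log2(signal + 16). Dotted lines mark a change of 1. In replicate 2, 1 member lies just below 0 in the double mutant, at -0.03.

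At the limit for sicy-192, the nearest members were the unnamed 256633_at (1.003) and AT3G25210 (1.01), and the nearest probe sets outside were the unnamed 257460_at (0.999) and AT1G33350 (0.994). For the double mutant, the unnamed 261064_at (1.004) and AT5G18310 (1.01) were just inside, and AT1G71060 and 262957_s_at (0.995 and 0.993) just outside. The widest gaps between the mutants among members were those of AT5G58570 and 258406_at (both 0.49), and the narrowest outside were 249372_at (0.51) and AT2G25980 (-0.51). By mean level, AT1G72570 (6.005) and 246465_at (6.06) were just inside, and 261134_at (5.99) and AT1G72840 (5.97) just outside. AT3G25210 and AT1G33350 had double mutant changes of 1.32 and 1.15.

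Genes with a role in mitochondria numbered 5 among the named members, with changes of 1.17 to 4.27 for sicy-192 and of 1.22 to 3.91 for the double mutant. AT5G51440, with AT2G21640 one of the named members changed most, encodes a small heat shock protein of mitochondria. Its signals were 168 and 110.4 in wild type, 2552 and 3363 in sicy-192, and 2248 and 2301 with both mutations. These are log2 changes of 4.27 and 3.91, or 19.3-fold and 15.0-fold on the log2(signal + 16) scale. AT2G21640, known as UPOX, is a marker transcript of oxidative stress whose protein is mitochondrial, and its signals were 347 and 190.2 in wild type, 4824 and 4805 in sicy-192, and 3877 and 3432 with both mutations. In both genes every mutant array was far above the wild-type arrays, and both sicy-192 arrays were above both double mutant arrays. The changes of AT2G21640 were 4.14 and 3.74. AT5G51220, of a family of assembly chaperones for the cytochrome bc1 complex of the respiratory chain, gave 419 and 473 on the wild-type arrays, against 940.1 and 1319 for sicy-192 and 1355 and 1407 for the double mutant, with changes of 1.29 and 1.60. AT1G09300 encodes ICP55, a peptidase that trims imported mitochondrial proteins. It gave 503 and 579.9 for sicy-192 and 382 and 379.8 for the double mutant, from 175 and 129 in wild type, with changes of 1.74 and 1.26. Here too the groups did not overlap, and the sicy-192 arrays were the highest. The dim AT4G19650, of the mTERF family of organelle nucleic acid binding proteins, gave 9.34 and 48.7 on the wild-type arrays, against 77.6 and 72.8 for sicy-192 and 71.2 and 85.8 for the double mutant (changes of 1.17 and 1.22). These changes were 0.49 and 0.54 without wild-type replicate 1, 1.85 and 1.89 without wild-type replicate 2, and 0.61 and 0.65 when 64 was added in place of 16. Another member, AT2G07751, lies on chromosome 2 in a stretch copied from mitochondrial DNA, and its probe set cannot be assigned to the nuclear copy with certainty.

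**Figure D3:**
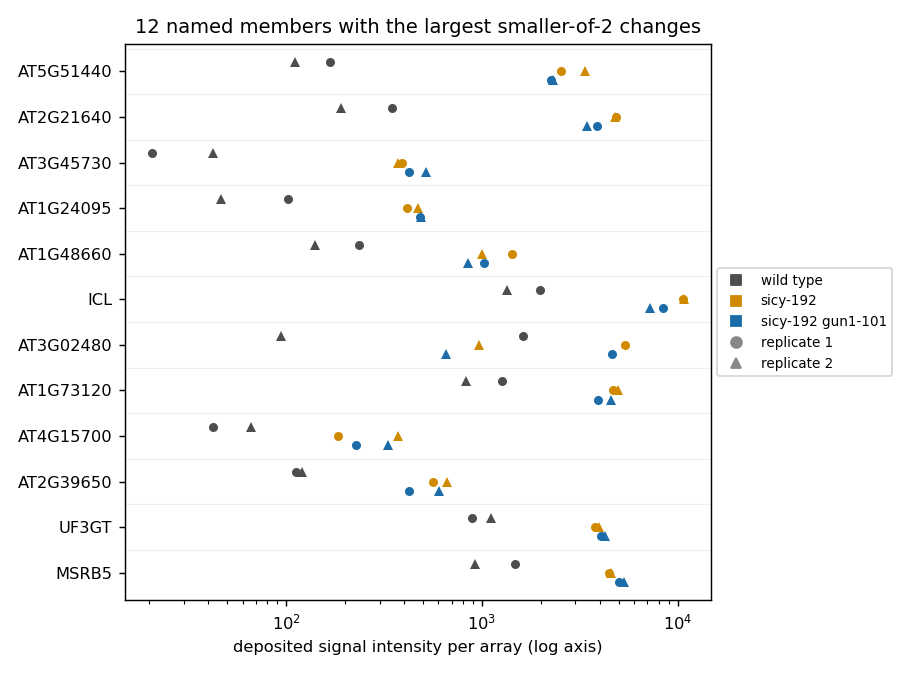
Deposited signal per array (log axis) of the 12 named members with the largest smaller-of-2 changes. Colours stand for genotypes and symbols for replicate numbers. Wild-type arrays lie to the left of all mutant arrays in every row but AT3G02480, where replicate 1 exceeds replicate 2 in each genotype.

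In a list of 24 genes known to answer mitochondrial dysfunction, 10 are named by the gene table used here. Of these 9 were tested, and AT5G51440 and AT2G21640 are members. Of the other 7 tested, limma called 3 higher and 1 lower in sicy-192 against wild type (23.0% of all probe sets were called in either direction) and 5 higher in the double mutant against wild type (30.1% in either direction). Between the mutants 6 of the 7 rose in the double mutant and none fell (20.7% of all in either direction). The 2 members were lower there by 0.36 and 0.40, a gap that their selection kept under 0.5.

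The MATE transporter gene AT2G04050 gave 62.1 and 39.3 in wild type, 944 and 1867 in sicy-192, and 3331 and 3307 with both mutations. It rose in sicy-192 (4.35 ± 0.29, SE, limma adjusted p = 3.24e-05) and further in the double mutant (1.31 against sicy-192, limma adjusted p = 0.0123). That further call was lost without double mutant replicate 1 (adjusted p = 0.0588) or replicate 2 (0.0639), and the value was 0.82 without sicy-192 replicate 1. AT2G41730 gave 203 and 106 on the wild-type arrays, against 1027 and 1303 for sicy-192 and 3006 and 2839.7 for the double mutant, a rise of 2.84 ± 0.25 in sicy-192 (limma adjusted p = 9.74e-05) and of 1.32 from there to the double mutant (adjusted p = 0.00619). AT5G09570, a small protein with a twin cysteine motif found in mitochondria, went the other way in sicy-192. Its signals were 523 and 459 in wild type, 68.2 and 63.4 in sicy-192, and 497 and 279 with both mutations, a fall to sicy-192 (-2.63, limma adjusted p = 0.000143) followed by a rise to the double mutant (2.25, adjusted p = 0.000573). Named after their values were seen, AT5G43450 rose by 1.11 between the mutants, the alternative NADH dehydrogenase gene NDB4 by 1.45 and the glutathione transferase gene GSTU25 by 2.57 (limma adjusted p = 0.00443, 0.0243 and 0.000312). The call of NDB4 was lost under 4 alternatives, with adjusted p up to 0.133. For NDB2, chosen likewise, no comparison passed.

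**Figure D4:**
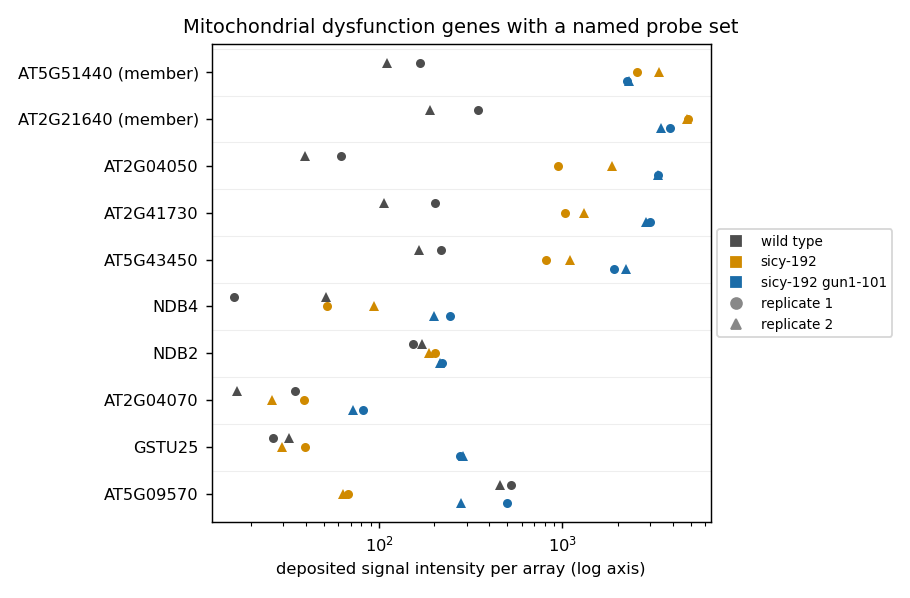
Deposited signal per array (log axis) of the 10 named genes from the list for mitochondrial dysfunction, with the 2 members at the top. Colours stand for genotypes and symbols for replicate numbers. In the 2 members the double mutant arrays lie at or below those of sicy-192, and in AT2G04050, AT2G41730, AT5G43450, NDB4, GSTU25 and AT5G09570 they lie above.

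Members that make or decorate flavonoids numbered 6, with changes of 1.32 to 1.95 for sicy-192 and of 1.02 to 2.05 for the double mutant. UF3GT, which adds xylose to anthocyanins, gave 885 and 1119 in wild type, 3806 and 3952 in sicy-192, and 4061 and 4267 with both mutations. DFR, the dihydroflavonol reductase at the entry to anthocyanin synthesis, gave 1953 and 2808 on the wild-type arrays, against 6797 and 7525 for sicy-192 and 7901 and 8963 for the double mutant. The malonyltransferase gene AT5MAT gave 817 and 1305 for sicy-192 and 1017 and 1462 for the double mutant, from 235 and 485 in wild type. In these 3 genes the highest array was a double mutant array, and all mutant arrays were above wild type. The changes were 1.95 and 2.05 for UF3GT, 1.60 and 1.84 for DFR and 1.57 and 1.80 for AT5MAT. UGT78D2, which adds glucose to the 3 position of flavonoids, gave 1069 and 1361 in wild type, 2804 and 3299.9 in sicy-192, and 3440.3 and 4212 with both mutations, with changes of 1.32 and 1.64. The order of the mutants was the opposite in the glucosyltransferase gene AT4G14090, which acts on the 5 position of anthocyanins (1.39 and 1.03), and in AT1G06000, which adds rhamnose to flavonols (1.42 and 1.02). Without wild-type replicate 1 the double mutant changes of AT4G14090 and AT1G06000 were 0.60 and 0.57. All 5 tested genes in the list for anthocyanin synthesis are members, so that list offers no gene outside the group, and 14 more of its 19 genes are not named.

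A further 3 members encode UDP-glycosyltransferases whose substrates in cotyledons are not stated here. AT2G16890 gave 32.0 and 55.7 on the wild-type arrays, against 224 and 259 for sicy-192 and 143 and 250.2 for the double mutant. AT2G36970 gave 737 and 1014 for sicy-192 and 835 and 1028 for the double mutant, from 252 and 304 in wild type. UGT71B1 gave 486 and 354 in wild type, 919 and 841 in sicy-192, and 858 and 919.8 with both mutations. Their changes ran from 1.05 to 2.13 in sicy-192 and from 1.07 to 1.81 in the double mutant, with UGT71B1 the smallest, and in none did wild-type and mutant arrays overlap.

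Genes known from seeds and oil bodies made up another 7 members. ICL encodes isocitrate lyase, an enzyme of the glyoxylate cycle that turns storage oil into sugar, and is the brightest member in sicy-192. Its signals were 1992 and 1346 in wild type, 10629 and 10772 in sicy-192, and 8401 and 7192 with both mutations, changes of 2.70 and 2.24. The double mutant arrays lay between wild type and sicy-192, and no groups overlapped. The list for oil mobilisation has 18 genes, of which 3 are named and tested. Beside ICL, neither AIM1 nor SDP1 was called in sicy-192. SDP1, the lipase that starts oil breakdown, was called higher in the double mutant (0.53, limma adjusted p = 0.0315, named after its values were seen), a call lost under 6 alternatives with adjusted p up to 0.167. AIM1, of the beta-oxidation of fatty acids, had values of 0.19 and -0.14.

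The late embryogenesis abundant protein gene AT3G02480 differed between replicates as well as between genotypes, at 1626 and 94.0 in wild type, 5405 and 964 in sicy-192, and 4614 and 658 with both mutations. In every genotype the replicate 1 array was over 2-fold above the replicate 2 array, and wild-type replicate 1 was higher than replicate 2 of either mutant. Its changes were 2.44 and 2.06. With 1 array left out they ran from 0.49 (without wild-type replicate 2) to 4.39 (without wild-type replicate 1) in sicy-192, and from 0.11 to 4.01 under the same omissions in the double mutant. They also moved without sicy-192 replicate 1 (1.21) or 2 (3.67), and without double mutant replicate 1 (0.67) or 2 (3.45). AT3G17520, of the same protein class and named for its role, gave 92.8 and 3.05 on the wild-type arrays, against 269 and 16.0 for sicy-192 and 275 and 32.9 for the double mutant, with the same order of replicates. Its groups overlapped too, since wild-type replicate 1 lay above replicate 2 of both mutants. The change of 1.07 in sicy-192 turned to -0.19 without wild-type replicate 2 and to -0.51 without sicy-192 replicate 1, and reached 2.65 without sicy-192 replicate 2 and 2.33 without wild-type replicate 1. That of 1.39 in the double mutant was 0.13 and 2.65 without wild-type replicate 2 or 1, and 0.10 and 2.68 without its own replicate 1 or 2. With an offset of 1 or 64 in place of 16, the changes were 1.80 and 2.31, or 0.67 and 0.82. AT3G01570, an oleosin, which coats oil bodies, gave 217 and 73.7 for sicy-192 and 246 and 111 for the double mutant, from 30.0 and 15.6 in wild type. Its replicate 1 arrays were the higher in each genotype, but the groups did not overlap, with changes of 1.92 and 2.26 (1.23 in sicy-192 without sicy-192 replicate 1, and 1.19 and 1.43 with an offset of 64). AT1G67360, a small rubber particle protein that sits on lipid droplets, gave 724 and 638 in wild type, 1674 and 1705 in sicy-192, and 1618 and 1436 with both mutations, and its arrays were close within each genotype. The remaining 2 were the vacuolar processing enzyme BETA-VPE, which matures seed storage proteins (1.205 and 1.12), and the embryo-specific protein gene AT5G62210 (1.57 and 1.14).

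Thiol and sulphur metabolism was represented by 5 members. MSRB5, a methionine sulfoxide reductase, which repairs oxidised methionine, gave 1476 and 921 in wild type, 4453 and 4553 in sicy-192, and 5008 and 5304 with both mutations. AT1G24095, a putative thiol-disulphide oxidoreductase, gave 102 and 46.7 on the wild-type arrays, against 413 and 469.6 for sicy-192 and 484 and 488 for the double mutant. The CC-type glutaredoxin gene AT4G15700 gave 183 and 372 for sicy-192 and 226 and 330.4 for the double mutant, from 42.2 and 65.9 in wild type. All mutant arrays were above wild type in each, and the changes were 1.93 and 2.13 for MSRB5, 2.41 and 2.55 for AT1G24095 and 2.01 and 2.07 for AT4G15700. MGL, methionine gamma-lyase, which breaks methionine down, gave 338 and 152 in wild type, 726 and 608 in sicy-192, and 929 and 561 with both mutations. Its changes of 1.48 and 1.60 were 0.95 and 1.06 without wild-type replicate 2. AT4G15660, a second glutaredoxin gene with 3 protein-coding genes between it and AT4G15700 on chromosome 4, had changes of 1.47 and 1.26, the first of which was 0.76 without sicy-192 replicate 2.

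Among protein folding and turnover genes, 7 members had changes of 1.01 to 1.27 for sicy-192 and of 1.16 to 1.64 for the double mutant. AT3G09440, a cytosolic HSP70 chaperone, had the highest mean level among the named members, at 3277 and 3226 in wild type, 7037 and 7264 in sicy-192, and 9290.1 and 8762 with both mutations. BZIP60, a transcription factor of the ER stress response, gave 463 and 577 on the wild-type arrays, against 1007 and 1339.9 for sicy-192 and 1054 and 1429.9 for the double mutant. It is the only named gene of the 7 in the list for ER protein folding. Its replicate 2 arrays were the higher in each genotype, and no groups overlapped between wild type and mutants. AT1G66080, of the Hikeshi family that carries HSP70 into the nucleus, gave 353 and 239.7 for sicy-192 and 337 and 241 for the double mutant, from 119 and 108 in wild type. The dim RING finger gene AT1G74870 gave 11.9 and 87.9 in wild type, 118 and 109 in sicy-192, and 141 and 164 with both mutations, and its changes of 1.27 and 1.64 were 0.32 and 0.70 without wild-type replicate 1, 2.22 and 2.59 without wild-type replicate 2, and 0.73 and 1.01 with an offset of 64. The others were ATG8B, a ubiquitin-like protein of autophagosomes (1.01 and 1.16), the RING finger gene AT1G19680 (1.05 and 1.31) and the subtilase gene SBT4.12 (1.12 and 1.25, the first being 0.67 without sicy-192 replicate 2).

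Members of the pentatricopeptide repeat family, which bind RNA in plastids and mitochondria, numbered 9, all of them dim. Their mean wild-type signals were 20.5 to 99.6, and their changes were 1.01 to 1.62 for sicy-192 and 1.02 to 1.69 for the double mutant. AT5G46460 gave 43.8 and 74.7 in wild type, 183 and 206 in sicy-192, and 231 and 189 with both mutations, with changes of 1.51 and 1.61. AT5G37570 gave 34.7 and 63.1 on the wild-type arrays, against 151 and 151 for sicy-192 and 168 and 140.1 for the double mutant, and AT2G15630 gave 156 and 253 for sicy-192 and 185 and 143 for the double mutant, from 38.3 and 74.2 in wild type. The dimmest of the 4 shown, AT3G58590, gave 7.17 and 33.8 in wild type, 71.1 and 70.5 in sicy-192, and 84.2 and 104 with both mutations. In these 4 genes every mutant array exceeded both wild-type arrays. The change of AT3G58590 in sicy-192, 1.35, was 0.80 without wild-type replicate 1, 0.69 when 64 was added in place of 16 and 2.09 when 1 was added, and its double mutant change was 0.92 with 64. The other 5 were AT4G14050, AT1G16830, AT1G77010, AT2G33680 and AT1G19290. With 1 array left out or 64 added, the lowest change in sicy-192 was 0.60 for AT4G14050 (without wild-type replicate 1), 0.60 for AT1G77010 (without wild-type replicate 2), 0.61 for AT2G33680 and 0.59 for AT1G19290 (both with 64). AT4G14050 reached 1.86 in sicy-192 without wild-type replicate 2, and in the double mutant was 1.02 without wild-type replicate 1. AT1G19290 was 0.65 there without double mutant replicate 2, AT2G33680 was 0.68 in sicy-192 without wild-type replicate 1, and AT1G77010 was 0.60 in the double mutant without wild-type replicate 2. In 8 of the 9 the double mutant was the higher of the mutants, by 0.001 (AT1G77010) to 0.42. These gaps were only 0.01 in AT1G19290 and 0.02 in AT5G37570, and selection kept all of them under 0.5. No family table was at hand, so the share of this family on the whole array is not given.

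A set of 3 members belongs to the pyridoxal phosphate enzymes that resemble D-amino acid aminotransferases. AT3G05190 gave 182 and 172 in wild type, 423 and 362 in sicy-192, and 479 and 322 with both mutations. AT5G27410 gave 179 and 166 on the wild-type arrays, against 453 and 379 for sicy-192 and 338 and 398 for the double mutant, and AT3G54970 gave 395 and 297 for sicy-192 and 429.9 and 311 for the double mutant, from 176 and 147 in wild type. The 3 were alike in level and in size of change, between 1.02 and 1.19 for sicy-192 and between 1.02 and 1.11 for the double mutant, close to the lower limit of the group.

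**Figure D5:**
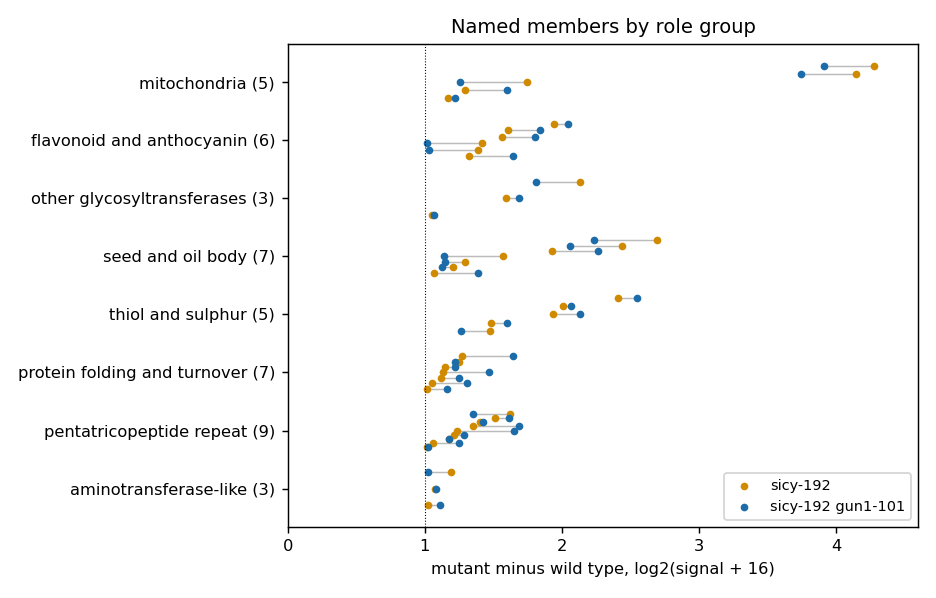
Change against wild type in log2(signal + 16) of the 45 named members placed in 8 role groups, with the number of genes in brackets. Each gene has an orange point for sicy-192 and a blue point for the double mutant joined by a grey line, and the dotted line marks a change of 1. The 2 genes beyond 3 are AT5G51440 and AT2G21640.

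The other 57 named members fall in none of these role groups. AT3G45730 gave 20.6 and 42.2 in wild type, 389.6 and 374 in sicy-192, and 425 and 515 with both mutations, a change of 3.11 and 3.39 from wild-type signals near the added 16, so that with 64 added the changes were 2.23 and 2.49. AT1G48660 belongs to the GH3 family, which joins amino acids to plant hormones, and gave 235 and 140.5 on the wild-type arrays, against 1418 and 1006 for sicy-192 and 1031 and 846 for the double mutant. AT1G73120 gave 4690.2 and 4974 for sicy-192 and 3932 and 4583 for the double mutant, from 1267 and 829.6 in wild type. All 3 had mutant arrays well above wild type, and AT1G48660 and AT1G73120 changed by 2.61 and 2.26 and by 2.22 and 2.03. AT2G39650 gave 112 and 120.5 in wild type, 563 and 667 in sicy-192, and 422 and 603 with both mutations, with changes of 2.25 and 1.98. AT5G12110, a subunit of the translation elongation factor that recharges eEF1A, was among the 5 brightest named members, at 3384 and 2642 on the wild-type arrays, against 7500.4 and 4992 for sicy-192 and 6899 and 5664 for the double mutant, and its changes were 1.03 and 1.06. MINIYO (IYO), a regulator of RNA polymerase II elongation, had changes of 1.71 and 1.55, the drought-induced gene DI21 of 1.53 and 1.52, and the plantacyanin gene ARPN of 1.11 and 1.06.

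Some listed genes rose in sicy-192 without being members, and fell from there to the double mutant. In the list for DNA damage, 2 of 15 genes are named, AT4G22960 and AT5G60250, and both did so, where 13.8% of all tested probe sets were called higher in sicy-192 and 20.7% were called between the mutants. AT5G60250, a RING-type zinc finger protein, gave 44.9 and 78.6 in wild type, 913 and 1178 in sicy-192, and 459 and 415 with both mutations, with differences of 3.79 and then -1.22 (limma adjusted p = 2.15e-05 and 0.00633). AT4G22960 gave 47.1 and 60.4 on the wild-type arrays, against 494 and 795 for sicy-192 and 78.8 and 99.6 for the double mutant, with values of 3.21 and -2.62 (adjusted p = 7.01e-05 and 0.000357).

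Of the 3 named sugar and starch genes among 13, 2 rose in sicy-192 (13.8% of all tested) and fell from there to the double mutant (20.7% of all tested called in either direction). They were PPDK, pyruvate orthophosphate dikinase (1.08 and then -0.75, limma adjusted p = 0.00635 and 0.0333), and APL3, of starch synthesis (1.07 and then -0.998, adjusted p = 0.0125 and 0.0181). Under 6 alternatives the fall of PPDK did not pass, with 0.175 as the highest adjusted p. Without wild-type replicate 1 the rise of APL3 was 0.69 and did not pass (adjusted p = 0.0518), nor did its fall under 3 alternatives (up to 0.125). Of 8 tested tau glutathione transferase genes, which detoxify reactive compounds, none is a member. In sicy-192 GSTU27 rose (0.79) and GSTU16 (-0.74) and GSTU18 (-1.31) fell (limma adjusted p = 0.0275, 0.0132 and 0.00215), and between the mutants 2 of the 8 rose and 2 fell. Of all tested probe sets 23.0% were called in either direction in sicy-192 and 20.7% between the mutants. The calls of GSTU27 and GSTU16 in sicy-192 were lost under 5 and 2 alternatives (adjusted p up to 0.157 and 0.0748), and that of GSTU27 was 0.52 without sicy-192 replicate 1. The lists for reactive oxygen, plastid transcription and defence had 1 tested gene each. These were the zinc finger gene STZ, the RNA polymerase gene AT5G15700 and the defensin gene PDF1.2, all named after their values were seen, and none of them was called in sicy-192 (limma adjusted p = 0.126, 0.382 and 0.866). STZ was called there under 2 of the alternatives, the replicate block (adjusted p = 0.0221) and the omission of wild-type replicate 2 (1.90). Its double mutant level was called higher than wild type by 3.32 and higher than sicy-192 by 2.26 (limma adjusted p = 0.00107 and 0.00836). Omitting double mutant replicate 2 gave 2.08 for the latter, which was then not called. Neither AT5G15700 nor PDF1.2 was called between the double mutant and either other genotype (limma adjusted p of at least 0.0561).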

How the data were processed

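The deposited table holds 1 linear signal intensity per probe set and array. Per the submitters' processing notes the software was GCOS (no version), and the algorithm and any detection calls are not given in the sources used here. The mean of each deposited column of intensities, with 2% trimmed at each end, is 500.05 to 500.06, so the arrays share a scale.

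Intensities were used as deposited, 16 was added and log2 taken, which understates changes of dim probe sets. Of 22810 probe sets, 64 are controls. The gene table lists 1 gene for 13513, several for 503 and none for 8730, and 13436 matched a locus of the RefSeq table (TAIR10.1). No build is stated for the arrays, so no coordinates are given, and no sequences were used.

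limma 3.58.1 in R 4.3.3 (lmFit, eBayes with a variance trend, two-sided) was fitted to all 6 arrays over the 14785 probe sets above the 35th percentile of mean level, with Benjamini-Hochberg adjustment and a threshold of 0.05. The fit was tested on simulated data, with noise drawn independently for each array. Same-numbered arrays deviated together in the deposited data, which that simulation does not cover. Members were selected on all 3 contrasts, so their differences are described, and the limma calls counted among them are no independent test. Members and the 17 gene lists were chosen with earlier results of these data known. Only 46 of 212 list entries are named by the gene table used here. The lists for plastid protein folding, nitrogen turnover, phosphate starvation, senescence and seed storage have no named gene. A gene that is not named may still be measured, by a probe set for which that table lists no gene or several. Such genes could also be among the members without a listed gene. Named members may all be given. Signals of each array are given for the 12 members with the largest smaller change, the 5 brightest and up to 4 per role group, with roles from general knowledge. The first 2 parts of that rule were also applied among members with 1 listed gene alone, an addition made after the values were seen. For other listed genes the rule names up to 3 called genes per list. Alternatives were other offsets, scalings, filters, a replicate block, no variance trend, 2 groups alone, a threshold of 0.10, other level limits and leaving out each array.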

Additional observations from a re-analysis of the deposited data

Results flagged for a closer look

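A control for 25S ribosomal RNA that no comparison uses had a mean signal of 8070 ± 413 in the double mutant (SD, n = 2), against 1108 ± 928 in wild type and 1275 ± 145 in sicy-192. It stands out because both double mutant arrays lie above all other arrays. Its part in the members' values was not tested.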

How the results depend on the processing

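The number of member probe sets was 178, and it was 100 with an offset of 64 and 116 after centring each array on its median. It was 170 to 260 when each array was left out in turn, and of the 178 between 130 and 145 met the limits in each case. Replicate 1 arrays alone gave 251 and replicate 2 arrays alone 174, with 83 probe sets in both sets. The members' median change in sicy-192, 1.35, was 1.54 with an offset of 1, 1.09 with 64, 1.26 with quantile normalization, 1.16 after median centring and 1.28 to 1.47 without 1 array. That in the double mutant, 1.39, was 1.59, 1.11 and 1.30 with an offset of 1, of 64 and after median centring, and 1.37 to 1.46 without 1 array. Changes were recomputed under 11 settings for 64 members, the 46 given in full and, added after seeing the data, the others named with a change. Of 1408 values 1406 stayed above 0 and 1272 were at least 1. Members were chosen for changes of at least 1 on these same arrays, so few values could fall below 0. The 2 below 0 were those of AT3G17520 in sicy-192, -0.19 without wild-type replicate 2 and -0.51 without sicy-192 replicate 1, in a range of -0.51 to 2.65 with 1 array left out. For listed genes that are no members, 37 called differences were recomputed under up to 14 alternatives, a step added after seeing the data. These were not the same set as for the members, since filters, the variance trend and the replicate block were varied too. Of 509 such values 467 were still called, 42 were not and 0 changed sign. Probe sets called numbered 3401 in sicy-192 against wild type, 4450 in the double mutant against wild type and 3060 between the mutants. Without 1 array these were 2043 to 2968, 2307 to 4322 and 1457 to 3262. Same-numbered samples deviated from their group means together (r = 0.436, 0.329 and 0.374 across probe sets) and the bioB and actin controls split by number, but the labels name no shared source, so the numbers were not used as pairs. The replicate block gave 5412, 6362 and 4917 calls, and called 10 of 35 differences of listed non-members that were otherwise not called. Of the calls in sicy-192 2040 were higher and 1361 lower, against 1421 and 1533 with quantile normalization and 862 and 1883 after median centring, and in the double mutant 2560 and 1890, against 1977 and 2055 and 1878 and 2289. Between the mutants these were 1410 and 1650, against 1517 and 1642 and 1781 and 1195. The cause of these shifts was not tested.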

Other observations

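Of the 12 members with the largest smaller change, 8 have no listed gene. The largest were 254059_at (71.4 and 37.3 in wild type, against 1275 and 698 for sicy-192 and 1599.5 and 483 for the double mutant) and 248676_at (208 and 26.4, against 1443 and 1093 and against 1787 and 1339). Their changes were 3.81 and 3.72, and 3.71 and 4.004. The next were 255430_at (70.4 and 50.7, 633 and 699, 896 and 821) and 261192_at (107 and 107, 835 and 1034, 1322 and 1209), in the same order of genotypes, both higher in the double mutant. Dimmer still was 249082_at (6.57 and 11.1, 263 and 101, 338 and 68.3), whose double mutant change of 2.80 was 1.77 without double mutant replicate 1 and 1.66 with an offset of 64 (1.67 from 2.87 in sicy-192). The others were 258983_at (128 and 53.9, 1012 and 743, 695 and 568), 261065_at (32.2 and 7.97, 167 and 180.5, 182 and 244, with changes of 2.48 and 2.74 that were 1.52 and 1.73 with an offset of 64) and 250558_at (314 and 587, 2256 and 2329, 2577 and 3379.5). In these 8 no mutant array overlapped a wild-type array.

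Of the 5 brightest members, 3 have no listed gene. They were 255479_at (3271 and 3692 in wild type, against 6947 and 7239 for sicy-192 and 10316 and 9242 for the double mutant), 252123_at (1956 and 3218, 7913 and 8441, 8561 and 9785) and 254283_s_at (2468 and 4138, 7997 and 7884, 6983 and 7370.1).

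With 16 added to each signal, the replicate 1 array was at least 2-fold above the replicate 2 array in every genotype in 3 members. These were AT3G02480, AT3G17520 and 246481_s_at, a probe set listed for more than 1 gene, which gave 2100.1 and 856 in wild type, against 6580.1 and 2139 for sicy-192 and 5047 and 2099 for the double mutant. With nothing added 247437_at also did so, without a listed gene (12.7 and 3.60, 276 and 22.8, 244 and 62.0). No member was the other way round on either scale.

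Member genes also lay close together on the chromosomes in some cases. Beside the glutaredoxin genes, ICL and UGT71B1 on chromosome 3 have 2 protein-coding genes between them, BETA-VPE and AT1G62730 on chromosome 1 have 1, AT4G33960 and AT4G33985 have 2, and AT4G14050 and AT4G14090 have 4. How often genes chosen without regard to their values lie this close was not tested.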
